A study of Mus musculus with 9 samples.

Results

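Endothelial, mural and leptomeningeal genes were followed in RNA of hippocampal synaptoneurosomes, a preparation in which resealed synaptic endings are concentrated. The set holds 32 genes of the 22255 in the count table: 17 endothelial, 9 mural and 6 leptomeningeal. They were chosen by symbol as known markers of these cells, though with earlier results of these data known. All 9 samples came from Fmr1 knockout (Fmr1 KO) mice of strain C57Bl/6J, a model of fragile X syndrome, so knockout animals stand on both sides of the comparison and wild-type samples are not analysed here. In 4 samples (replicates A, B, C and E) the mice had received AM6545 sub-chronically, a CB1 cannabinoid receptor antagonist that stays mostly outside the brain. In the other 5 (replicates A to E) they had received vehicle. Dose, age, the day of sampling and whether animals were pooled are not given in the sources used here. Because the labels do not say that the samples came from separate animals, the p-values below measure only the spread between these samples, which may be technical.

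Blood vessels of the brain are lined by endothelial cells that are sealed by tight junctions and that carry nutrients through dedicated transporters; together these properties make the blood-brain barrier. Mural cells wrap the endothelium: pericytes on capillaries, and contractile smooth muscle cells on arterioles. Endothelial growth and stability are set by receptor tyrosine kinases for vascular endothelial growth factors and angiopoietins, and pericytes are recruited by platelet-derived growth factor acting on PDGF receptor beta. The leptomeninges, the thin membranes over the brain surface, hold fibroblasts that make collagens and small proteoglycans. Several of the genes, among them the transporters, are also known from other cells of the brain.

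Promoter sequence is shown for the endothelial genes that stood lowest in AM6545 samples or varied most between samples, Tek, Slco1a4 and Slco1c1. Each line runs 5′ to 3′ on the strand of the gene, covers 300 bases around the start site, most of them upstream of it, and comes from RefSeq on GRCm38.p6. Tek lies on the plus strand at chr4:94739039-94739338, Slco1a4 on the minus strand at chr6:141856171-141856470, and Slco1c1 on the plus strand at chr6:141524104-141524403. Capitals mark GGAAG on either strand (CTTCC when read on the printed strand), the core that transcription factors of the ETS family recognise, among them the endothelial factor encoded by Erg.
Tek: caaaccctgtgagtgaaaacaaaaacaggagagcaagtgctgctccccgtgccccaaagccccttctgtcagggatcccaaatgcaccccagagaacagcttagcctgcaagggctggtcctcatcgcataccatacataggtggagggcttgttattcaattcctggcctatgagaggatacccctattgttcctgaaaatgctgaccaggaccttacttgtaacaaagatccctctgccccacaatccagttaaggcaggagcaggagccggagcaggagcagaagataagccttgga
Slco1a4: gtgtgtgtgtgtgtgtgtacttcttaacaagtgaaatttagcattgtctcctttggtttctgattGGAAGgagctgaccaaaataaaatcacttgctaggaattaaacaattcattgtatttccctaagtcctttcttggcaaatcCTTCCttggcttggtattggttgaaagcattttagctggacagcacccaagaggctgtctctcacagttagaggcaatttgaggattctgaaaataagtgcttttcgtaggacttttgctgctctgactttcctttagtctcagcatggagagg
Slco1c1: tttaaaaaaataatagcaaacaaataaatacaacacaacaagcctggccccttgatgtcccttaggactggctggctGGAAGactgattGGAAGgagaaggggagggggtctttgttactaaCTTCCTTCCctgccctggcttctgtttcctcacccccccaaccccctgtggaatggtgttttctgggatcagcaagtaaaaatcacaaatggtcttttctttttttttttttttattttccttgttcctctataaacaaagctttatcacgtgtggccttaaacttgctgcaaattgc
The Slco1c1 window held 4 such matches, 2 of them sharing a base, the Slco1a4 window held 2 and the Tek window 0. Of 32851 promoter windows of the same 300 bases, 71.4% held at least 1 match, so a match is common and describes only the letters in the window. Among the 22 members with a promoter in the table, Tie1 had the most matches in 1 window, at 7.

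The samples were checked first. Totals ran from 17628922 counts in vehicle A to 27263393 in vehicle B. Neuronal transcripts were abundant: Snap25, a protein of the vesicle fusion machinery, lay between 3354 and 5304 CPM (counts scaled to a common library size with TMM factors), and the 12 neuron markers summed to between 8069 and 10681 CPM. Fmr1, the gene targeted in all animals, gave 199 to 310 counts in every sample, and no sample with an intact gene is at hand to compare it with. The 17 endothelial genes summed to between 140.2 and 326.4 CPM, the 9 mural genes to between 72.6 and 173 CPM and the 6 leptomeningeal genes to between 138.7 and 247 CPM. Some of the endothelial and mural genes had very few counts. Cdh5, the cadherin of endothelial junctions, had 3 to 12 counts in a sample, Erg had 0 to 4 counts, and Anpep, a peptidase of pericytes, had 0 to 5 counts. These 3 fell under the count filter, which left 29 members for testing: 15 endothelial, 8 mural and 6 leptomeningeal.

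No member passed the test between AM6545 and vehicle. By edgeR's quasi-likelihood test with Benjamini-Hochberg adjustment over all 14512 genes tested, 0 of the 29 members passed an adjusted p of 0.05, as did 0 genes in the whole table (0% called), and the smallest adjusted p of a member was 0.653. Tek and Slco1a4, 2 members, had an unadjusted p under 0.05, both lower in AM6545 samples. That is 6.90% of the members tested, beside 7.21% of all genes tested (4.18% lower and 3.03% higher). For 0 of the 29 did the CPM ranges of the groups fail to overlap, against 1.45% of all genes tested. The count of 2 was 1 with DESeq2 (Tek), 0 without AM6545 A, vehicle D or vehicle E, 1 without AM6545 B, C or E or vehicle A, and 3 without vehicle C, where Slco1c1 joined. Without vehicle B it was again 2, but these were Slco1a4 and Slco1c1.

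As groups, endothelial genes had a median log2 fold change of -0.15 (4 higher, 11 lower), mural genes -0.07 (3 higher, 5 lower) and leptomeningeal genes 0.02 (4 higher, 2 lower), beside -0.01 over all genes tested. The 23 tested vessel genes together, endothelial and mural, had a median of -0.10. The endothelial level, the mean log2 CPM of its tested genes, was 2.32 ± 0.16 (SD, n = 4) under AM6545 and 2.47 ± 0.49 (SD, n = 5) under vehicle. The mural level was 1.80 ± 0.26 (SD, n = 4) against 1.84 ± 0.25 (SD, n = 5), and the leptomeningeal level 3.03 ± 0.71 (SD, n = 4) against 3.09 ± 0.47 (SD, n = 5). Each difference was smaller than the spread within the groups. Single samples moved the group medians: the leptomeningeal median was -0.43 without AM6545 E and 0.30 without AM6545 C, the mural median -0.22 without AM6545 E and 0.08 without AM6545 C, and the endothelial median -0.26 without AM6545 B and -0.06 without vehicle B. In bulk RNA, fewer cells of a type and less RNA per cell cannot be told apart.

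**Figure D1:**
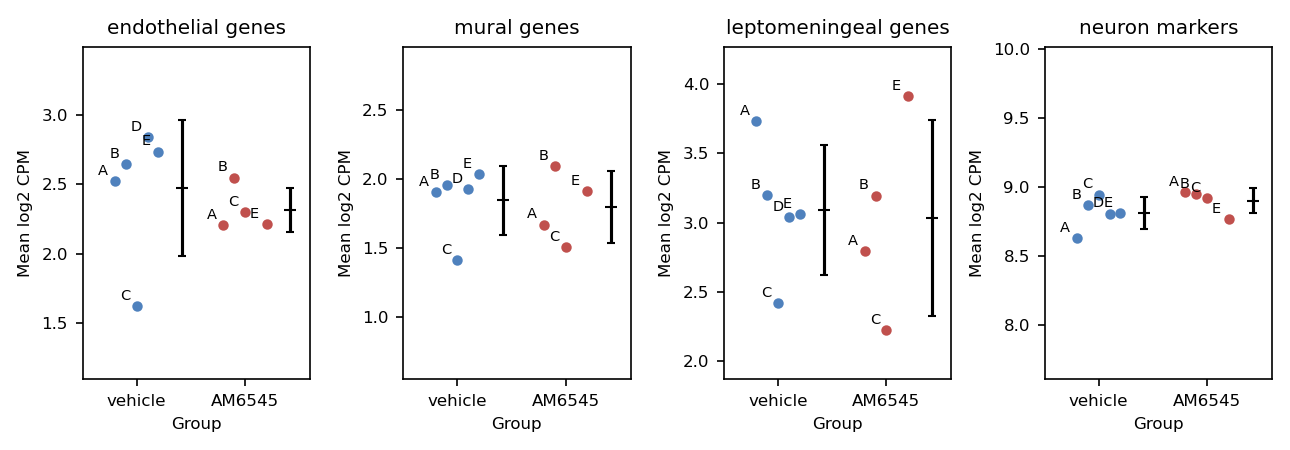
Level of each gene class by sample, as mean log2 CPM of the tested genes of the class (vertical axis, the same span in each panel), with vehicle samples in blue, AM6545 samples in red, letters for replicates, and bars at the group mean ± SD. Vehicle C is the lowest endothelial sample at 1.62 and the leptomeningeal genes span the widest range, from 2.22 in AM6545 C to 3.91 in AM6545 E, while the neuron markers lie between 8.63 and 8.96.

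Among the receptors of the endothelium, Tek had the lowest log2 fold change and the smallest unadjusted p of the set. Tek encodes TIE2, the receptor for angiopoietins. Its level was 0.258, 0.763, 1.07 and 0.715 CPM in AM6545 A, B, C and E, and 1.39, 1.61, 0.559, 1.61 and 1.53 CPM in vehicle A to E. Vehicle A, B, D and E lay above all AM6545 samples, and vehicle C lay below 3 of the 4, so the groups overlapped. Mean levels were 0.702 ± 0.336 (SD, n = 4) and 1.34 ± 0.446 (SD, n = 5) CPM, for a log2 fold change of -0.92 (SE 0.38, unadjusted p = 0.0286, adjusted p = 0.653 by edgeR's quasi-likelihood test). These levels rest on 5 to 44 counts a sample, and the fold change ran from -1.19 without AM6545 C to -0.66 without AM6545 A.

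The other receptors differed less. Tie1, the partner receptor of TIE2, was at 0.362, 0.635, 0.300 and 0.238 CPM in AM6545 A, B, C and E and at 0.173, 0.622, 0, 0.761 and 0.748 CPM in vehicle A to E. The count of 0 in vehicle C allows a level of up to 0.152 CPM (3 counts, counting error only), and the log2 fold change was -0.33 (SE 0.61, adjusted p = 0.892). The receptors for vascular endothelial growth factors, Kdr and Flt1, had log2 fold changes of -0.24 (SE 0.19) and -0.07 (SE 0.22). Kdr had a narrow range in AM6545 samples, 2.92 to 3.26 CPM, inside its vehicle range of 2.54 to 4.73 CPM, and Flt1 lay between 1.42 and 2.72 CPM over all samples. The growth factor receptors rested on 28 to 112 counts a sample.

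Transporters of the barrier did not share a pattern. Slc2a1, the glucose transporter GLUT1, was at 55.4, 54.5, 57.6 and 66.7 CPM in AM6545 A, B, C and E and at 68.2, 60.5, 40.4, 71.3 and 52.6 CPM in vehicle A to E. The AM6545 samples lay inside the vehicle range, and the means were 58.5 ± 5.62 CPM (SD, n = 4) and 58.6 ± 12.5 CPM (SD, n = 5), with a log2 fold change SE of 0.14 around an estimate whose sign turned with the scaling. Mfsd2a, which carries lysophosphatidylcholine lipids and restrains transcytosis, was at 24.5 ± 1.87 CPM (SD, n = 4) and 24.4 ± 4.41 CPM (SD, n = 5), with an SE of 0.13 on the log2 scale; AM6545 samples lay between 22.2 and 26.8 CPM, inside the vehicle range of 19.0 to 27.8 CPM. Abcb1a, the drug efflux pump P-glycoprotein, had the largest positive estimate of the endothelial genes. It was at 1.03, 1.44, 1.202 and 1.35 CPM in AM6545 A, B, C and E and at 0.809, 1.21, 0.762, 1.14 and 0.944 CPM in vehicle A to E, from 14 to 34 counts. AM6545 B and E lay above every vehicle sample and AM6545 A and C did not. Its log2 fold change was 0.36 (SE 0.25, adjusted p = 0.692).

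Slco1c1 and Slco1a4 varied most among the abundant endothelial genes. They encode the organic anion transporters OATP1C1, which carries thyroxine, and OATP1A4, and both are also known from the choroid plexus, the tissue in the ventricles that makes cerebrospinal fluid. Slco1c1 was at 43.9, 36.7, 34.5 and 59.5 CPM in AM6545 A, B, C and E and at 102, 35.8, 22.6, 106 and 78.5 CPM in vehicle A to E. Vehicle A, D and E lay above all AM6545 samples, vehicle C lay below all of them, and vehicle B lay between AM6545 B and C. The log2 fold change was -0.66 (SE 0.36, adjusted p = 0.653). Slco1a4 was at 4.08, 5.59, 5.11 and 7.63 CPM in AM6545 A, B, C and E and at 15.0, 5.97, 2.59, 17.7 and 10.9 CPM in vehicle A to E. Here too vehicle A, D and E were highest and vehicle C lowest, and the log2 fold change was -0.89 (SE 0.40, unadjusted p = 0.0431, adjusted p = 0.653 by edgeR's quasi-likelihood test).

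Markers of the choroid plexus moved with these transporters. The 15 choroid plexus markers, 0 of which are among the 32 genes, summed to 2130, 1692, 488 and 3664 CPM in AM6545 A, B, C and E and to 9788, 1135, 341 and 11198 CPM in vehicle A, B, C and D and 5628 CPM in vehicle E. The samples with the highest sums, vehicle D, A and E and then AM6545 E, are in that order those with the highest Slco1c1, and vehicle C is lowest in both. Ttr, the thyroxine carrier that defines this epithelium, lay between 30.9 and 3999 CPM, and Aqp1 was the 1 marker with a count of 0 in any sample (vehicle C). All 15 choroid plexus markers were lower in AM6545 samples (median log2 fold change -1.45) and 0 passed the adjusted threshold. With the choroid plexus level as a covariate, an alternative chosen after the data were seen, the log2 fold change of Slco1c1 was -0.08 (adjusted p = 0.891) and that of Slco1a4 was -0.27 (adjusted p = 0.768), while that of Tek was -0.83 (adjusted p = 0.709), all by edgeR. The same fit put the endothelial median at -0.05, the mural median at 0.03 and the leptomeningeal median at 0.31. In that fit the log2 fold change of Vtn, a pericyte gene, was 0.31 (edgeR adjusted p = 0.757), and that of Col1a2, a collagen gene, was 0.34 (edgeR adjusted p = 0.713).

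**Figure D2:**
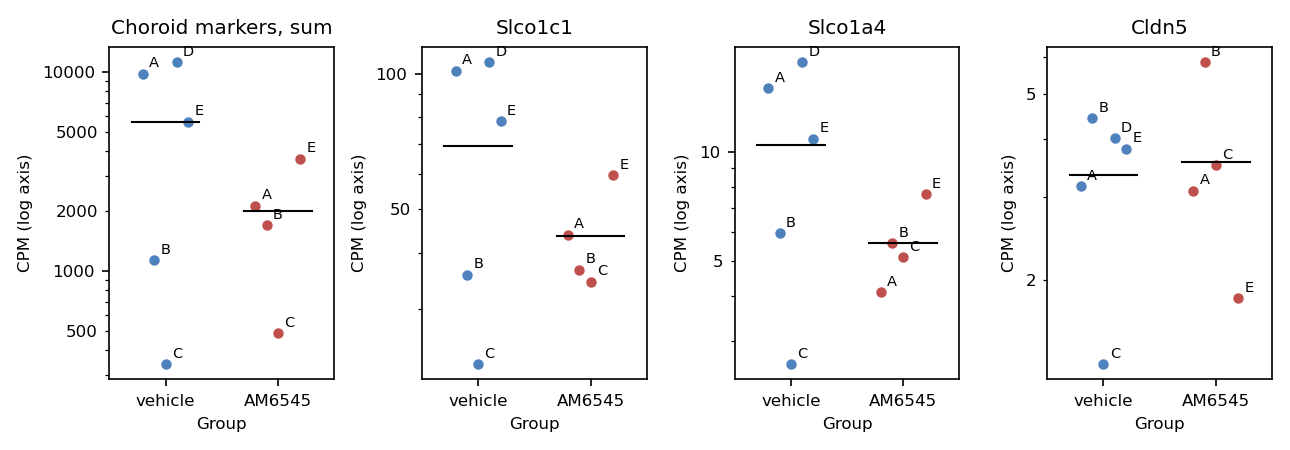
CPM by sample on log axes for the sum of the choroid plexus markers, for Slco1c1 and Slco1a4, and for the tight junction gene Cldn5; letters are replicates and lines are group means (vehicle n = 5, AM6545 n = 4). Vehicle A, D and E are highest and vehicle C lowest in the first 3 panels; for Cldn5, AM6545 B is highest at 5.85 CPM and AM6545 E, high in the first 3 panels, is at 1.83 CPM.

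Junction and surface genes of the endothelium varied between samples as well. Cldn5, the main claudin of the barrier, was described by sample after its values were seen: 3.10, 5.85, 3.52 and 1.83 CPM in AM6545 A, B, C and E and 3.18, 4.43, 1.32, 4.02 and 3.82 CPM in vehicle A to E. AM6545 B was highest, and AM6545 E and vehicle C were lowest. The group means, 3.57 ± 1.68 (SD, n = 4) and 3.35 ± 1.22 (SD, n = 5) CPM, gave a log2 fold change of 0.08 (SE 0.33). Esam, an adhesion molecule of endothelial junctions, also had AM6545 B highest, at 6.95 CPM, and vehicle C and AM6545 E lowest, at 3.20 and 3.496 CPM (log2 fold change 0.05, SE 0.22). Pecam1, the adhesion molecule CD31, was lower in the estimate at -0.46 (SE 0.30, adjusted p = 0.677), with 0.672 to 1.23 CPM in AM6545 samples and 0.863 to 2.09 CPM in vehicle samples. The surface antigens Ly6a and Ly6c1 had log2 fold changes of -0.10 (SE 0.24) and -0.21 (SE 0.29) and ranges of 3.30 to 7.58 CPM and 3.496 to 10.7 CPM, with AM6545 E the lowest AM6545 sample for both. Their transcripts share stretches at least 95% identical over 200 bases with each other, and Ly6c1 also with Ly6c2, so how reads were divided between them is uncertain. Itm2a, a membrane protein, was at 39.1, 50.3, 41.8 and 56.7 CPM in AM6545 A, B, C and E and at 56.9, 46.6, 37.4, 68.2 and 51.8 CPM in vehicle A to E, so that vehicle A and D lay above every AM6545 sample and vehicle C below every one (log2 fold change -0.15, SE 0.16).

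Vehicle C stood apart from the other vehicle samples in the vessel genes. It was the lowest vehicle sample for 15 of the 17 endothelial genes (88.2%), with Cdh5 and Erg the exceptions, whereas 23.4% of all genes tested were lowest in it. Of the mural genes 5 of 9 were lowest in vehicle C and of the leptomeningeal genes 4 of 6. Outside the set, the share was smaller for endothelial genes, at 20 of 34 further ones (58.8%). It was 10 of 22 (45.5%) for further mural genes and 18 of 25 for further leptomeningeal genes. The levels of other cells in that sample went the same way in part: 11 of 12 microglia markers, 9 of 12 oligodendrocyte markers, 7 of 12 astrocyte markers and 15 of 15 choroid plexus markers were lowest in vehicle C, and the summed astrocyte markers were at 4015 CPM there, while the remaining vehicle samples lay between 4457 and 6041 CPM. Neuron markers summed to 10681 CPM in vehicle C, the highest of the 9 samples, although 1 of the 12 was lowest there. Snap25 alone made up 5304 CPM of that sum. By mean log2 CPM of these markers, vehicle C was at 8.94, below AM6545 A at 8.96 and AM6545 B at 8.95. Without vehicle C the endothelial median was -0.25 and the log2 fold changes of Slco1a4 and Slco1c1 were -1.13 and -0.88; without vehicle D the latter were -0.61 and -0.45. The part of these other cells in the level of vessel genes was not tested.

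Per transcript length, the mural gene with the highest level was a pericyte gene. Vtn, which encodes the adhesion protein vitronectin, was at 49.6, 86.8, 41.4 and 116 CPM in AM6545 A, B, C and E and at 129, 73.5, 30.6, 73.0 and 52.9 CPM in vehicle A to E. The range within each group, from AM6545 C to AM6545 E and from vehicle C to vehicle A, was far wider than the difference of the means, 73.4 ± 34.6 (SD, n = 4) and 71.9 ± 36.6 (SD, n = 5) CPM, with a log2 fold change of 0.03 (SE 0.35). Rgs5, a regulator of G protein signalling, ran against the other vessel genes in vehicle C. It was at 19.3, 19.5, 30.0 and 32.2 CPM in AM6545 A, B, C and E and at 31.0, 26.4, 32.8, 26.4 and 22.1 CPM in vehicle A to E, so that vehicle C held the highest value of all 9 samples (log2 fold change -0.13, SE 0.17, adjusted p = 0.828). Pdgfrb, PDGF receptor beta, lay between 4.21 and 7.10 CPM with a log2 fold change of -0.06 (SE 0.17). Abcc9, a subunit of a potassium channel of pericytes, rested on 6 to 24 counts and 0.258 to 0.953 CPM (log2 fold change -0.08, SE 0.37), and Notch3, the Notch receptor of mural cells, on 7 to 26 counts and 0.300 to 1.02 CPM (-0.13, SE 0.40).

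Smooth muscle genes had AM6545 B as their highest AM6545 sample. Acta2, smooth muscle actin, was at 6.62, 9.02, 5.67 and 2.70 CPM in AM6545 A, B, C and E and at 3.81, 6.15, 2.64, 9.004 and 7.04 CPM in vehicle A to E. The lowest samples, vehicle C and AM6545 E, are those that were lowest for Cldn5. Tagln, the actin-binding protein transgelin, was at 2.07, 2.75, 1.55 and 1.07 CPM in AM6545 A, B, C and E and at 1.44, 1.83, 0.762, 1.69 and 1.69 CPM in vehicle A to E, again with vehicle C and AM6545 E lowest. Its log2 fold change of 0.31 (SE 0.30, adjusted p = 0.772) was the largest of the mural genes and was 0.05 without AM6545 B. Tagln overlaps an exon of Pcsk7 on the opposite strand in GENCODE M21, and the strand setting is not given in the sources used here, so reads of these genes may be mixed. Myh11, smooth muscle myosin, had the lowest estimate of the mural genes, -0.28 (SE 0.36, adjusted p = 0.826), which was -0.64 without AM6545 B and -0.10 without vehicle E. It was at 0.413, 0.847, 0.386 and 0.397 CPM in AM6545 A, B, C and E and at 0.404, 0.659, 0.559, 0.550 and 0.905 CPM in vehicle A to E, from 7 to 23 counts. The sample highest for Acta2 and Tagln among AM6545 samples was also highest for Myh11, and in vehicle samples the highest was E.

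**Figure D3:**
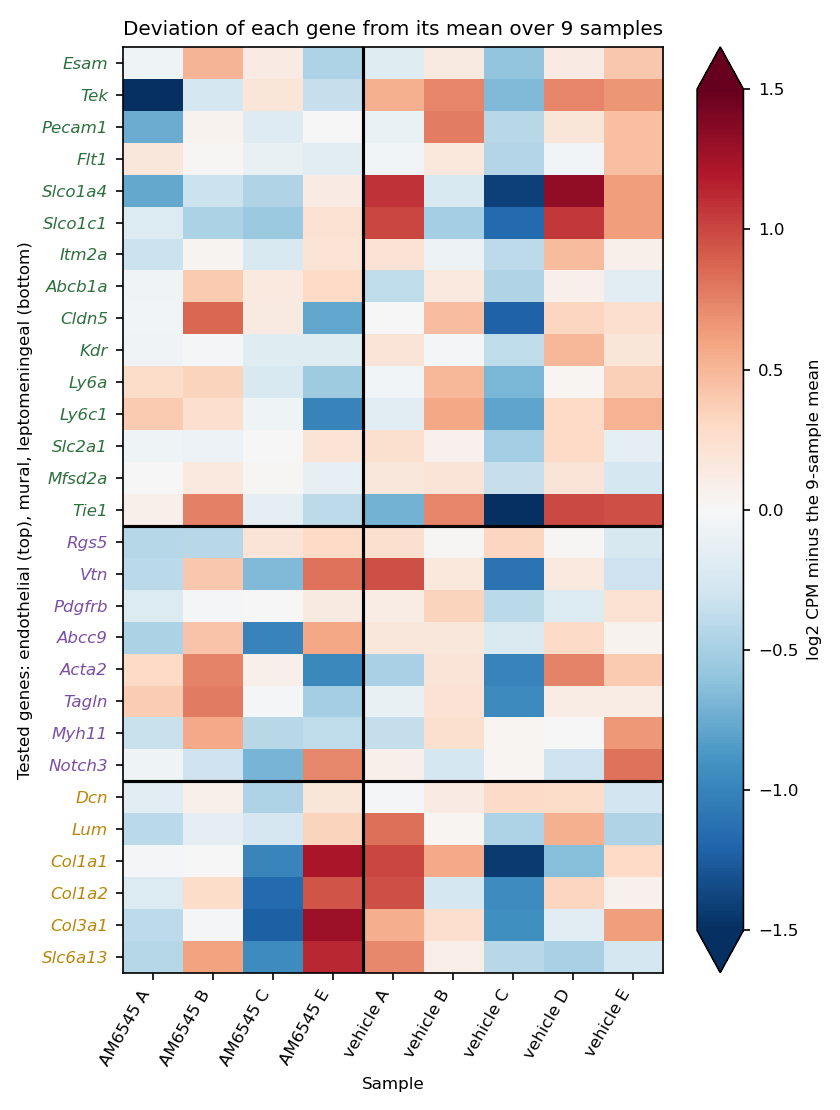
Deviation of log2 CPM from the 9-sample mean for each of the 29 tested genes (rows, endothelial at the top, then mural and leptomeningeal) in each sample (columns), on a colour scale from -1.5 to 1.5. Vehicle C is low in most endothelial rows, AM6545 E is low for Cldn5, Ly6c1, Acta2 and Tagln and high for the collagen rows, and the boundary between treatment groups does not divide the rows.

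Leptomeningeal genes spread widely between samples of the same group, with the proteoglycans steadier than the collagens. Dcn, the small proteoglycan decorin, had the highest level per transcript length of all members. It was at 146, 173, 118 and 186 CPM in AM6545 A, B, C and E and at 160.3, 178, 200.1, 197 and 134 CPM in vehicle A to E. Vehicle C was its highest sample, unlike for the collagens, and the groups overlapped (log2 fold change -0.16, SE 0.14, adjusted p = 0.753). Lum, the related proteoglycan lumican, was at 8.99, 10.9, 10.0005 and 15.1 CPM in AM6545 A, B, C and E and at 21.3, 12.2, 8.63, 17.3 and 8.74 CPM in vehicle A to E. Vehicle A and D exceeded all AM6545 samples while vehicle C and E were below all of them, and the log2 fold change was -0.27 (SE 0.25, adjusted p = 0.757), or -0.06 without vehicle A and -0.45 without AM6545 E.

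The fibrillar collagens had their extremes in the same samples or nearly so. Col1a2, a chain of type I collagen, was described by sample after its values were seen: 7.34, 10.3, 3.73 and 16.4 CPM in AM6545 A, B, C and E, and 16.6, 7.06, 4.37, 10.7 and 8.85 CPM in vehicle A to E. AM6545 E and vehicle A were highest, and AM6545 C and vehicle C lowest. Col1a1, the other chain, had its lowest values in vehicle C (0.355 CPM) and AM6545 C (0.515 CPM) and its highest in AM6545 E (2.70 CPM), a 7.60-fold range. Col3a1, type III collagen, was lowest in AM6545 C (0.601 CPM) and highest in AM6545 E (3.81 CPM), a 6.35-fold range. Against these ranges the log2 fold changes between groups were small: 0.09 (SE 0.49) for Col1a1, 0.00 (SE 0.37) for Col1a2 and 0.04 (SE 0.44) for Col3a1. Slc6a13, the GABA and taurine transporter GAT2, had the highest estimate of the class at 0.32 (SE 0.35, adjusted p = 0.798). It was at 7.75, 15.9, 5.41 and 23.0 CPM in AM6545 A, B, C and E and at 17.3, 11.3, 7.82, 7.48 and 8.70 CPM in vehicle A to E. AM6545 E was its highest sample, and without AM6545 E the estimate was -0.11.

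AM6545 E was the highest AM6545 sample for 6 of the 6 leptomeningeal genes, and AM6545 C the lowest for 5 of 6; over all genes tested these shares were 35.9% and 21.2%. A second list of 25 leptomeningeal genes, other than the 6, had most of its extremes in the same samples, gene by gene. Of these, 21 were highest in AM6545 E and 19 lowest in AM6545 C among AM6545 samples, and 23 were highest in vehicle A and 18 lowest in vehicle C among vehicle samples. Their sum was 158, 224, 101 and 299.6 CPM in AM6545 A, B, C and E and 409, 170.0, 109, 345 and 249 CPM in vehicle A to E. Of the 6 members, 4 were highest in vehicle A and 4 lowest in vehicle C among vehicle samples. The sum of the 6 had another order, at 220, 212, 222, 235 and 164 CPM in vehicle A to E. The choroid plexus markers were also highest in AM6545 E (15 of 15) and lowest in AM6545 C (14 of 15) among AM6545 samples, and markers of perivascular macrophages, which live around vessels and in the meninges, were lowest in AM6545 C for 7 of 8. AM6545 E was also the highest AM6545 sample for 13 of 14 vascular basement membrane genes, 11 of 12 microglia markers, 8 of 12 astrocyte markers and 12 of 20 vascular ligands. What part any of these cells had in the level of leptomeningeal genes was not tested.

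**Figure D4:**
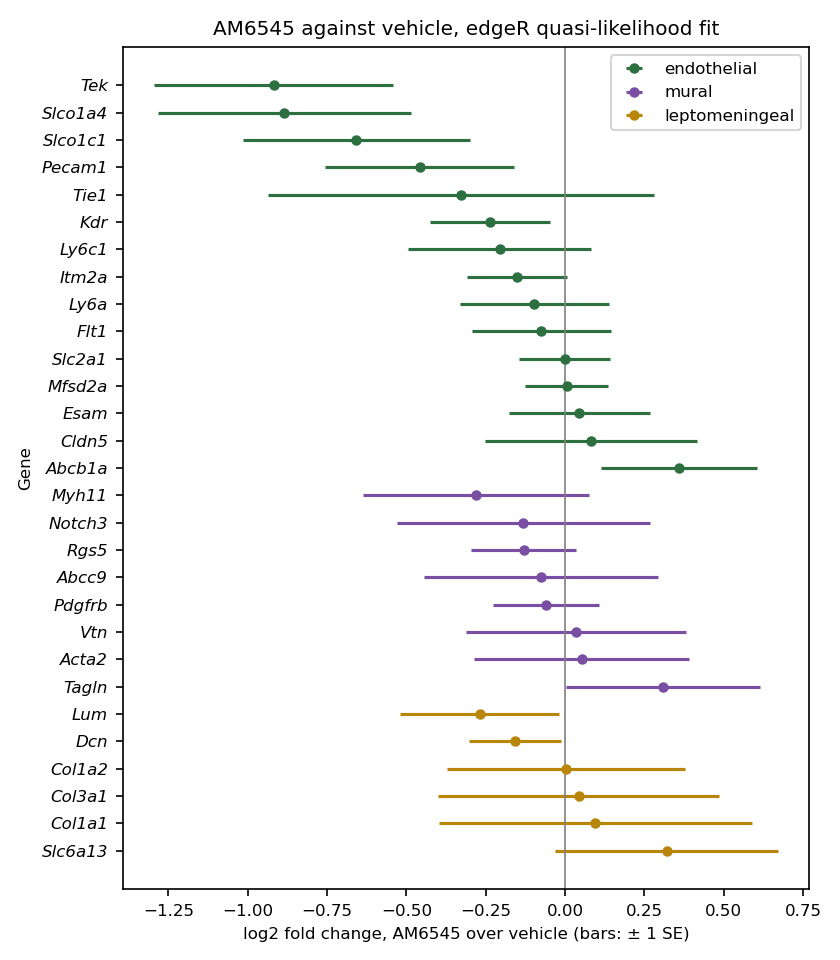
log2 fold change of AM6545 over vehicle (horizontal axis) for the 29 tested genes with bars of ± 1 SE, from the edgeR quasi-likelihood fit, ordered by estimate within each class. Estimates run from -0.92 for Tek to 0.36 for Abcb1a, and 0 of the 29 genes passed the adjusted threshold.

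Other genes of the same cells and pathways gave no call either. Of 34 further endothelial genes 33 were tested, 13 higher and 20 lower (median log2 fold change -0.05), with 0 past the adjusted threshold and 2 at an unadjusted p under 0.05. These were Emcn, the endothelial sialomucin endomucin, with mean levels of 1.40 ± 0.378 (SD, n = 4) and 2.28 ± 0.466 (SD, n = 5) CPM and a log2 fold change of -0.71 (SE 0.24, edgeR adjusted p = 0.653), and Cgnl1, the junction protein paracingulin, at -1.41 (SE 0.66, edgeR adjusted p = 0.653). The ranges of Emcn, 1.07 to 1.76 CPM and 1.83 to 2.96 CPM, did not overlap, and those of Cgnl1 did. Cgnl1 lay between 0.102 and 6.09 CPM in vehicle samples, and its AM6545 range, 0.644 to 2.03 CPM, was inside that. Emcn was the only 1 of the 33 without overlap, beside 1.45% of all genes tested. Of 22 further mural genes 18 were tested, 10 higher and 8 lower (median 0.04), with 0 past the threshold and Zic1 at an unadjusted p under 0.05 (log2 fold change -1.03, SE 0.42). Of 25 further leptomeningeal genes 24 were tested, 13 higher and 11 lower (median 0.02), with 0 past the threshold.

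The ligands that act on these cells were measured too. All 20 vascular ligands were tested, 9 higher and 11 lower (median log2 fold change -0.02), and 0 passed the adjusted threshold. Edn1, which encodes the vasoconstrictor peptide endothelin, was at an unadjusted p of 0.00775, with mean levels of 0.913 ± 0.176 (SD, n = 4) under AM6545 and 0.477 ± 0.127 (SD, n = 5) CPM under vehicle and a log2 fold change of 0.93 (SE 0.30, edgeR adjusted p = 0.653). Its lowest AM6545 value, 0.675 CPM, was just under its highest vehicle value, 0.676 CPM. Over all samples Edn1 lay between 0.355 and 1.10 CPM. That is within the range of Tek, 0.258 to 1.61 CPM, which had at most 44 counts, so depth limits Edn1 too. For 1 other ligand of the 20 the ranges of the groups did not overlap, beside 1.45% of all genes tested. The 14 vascular basement membrane genes had 10 higher and 4 lower (median 0.12), with 0 past the threshold. Their summed level was 3222 to 4167 CPM in AM6545 samples and 2796 to 3647 CPM in vehicle samples. Their mean log2 CPM was 3.17 ± 0.33 (SD, n = 4) under AM6545 and 3.15 ± 0.33 (SD, n = 5) under vehicle. A few abundant genes thus made up most of the sum, which does not stand for the list as a whole.

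Markers of the other cells a hippocampal fraction can hold gave 0 calls past the adjusted threshold in each list described here. All 10 ependymal markers were lower in AM6545 samples (median log2 fold change -0.77), 5 of them at an unadjusted p under 0.05: Dynlrb2, Mia, Tmem212, Cfap126 and Tekt1, with log2 fold changes from -1.28 for Mia to -0.74 for Tekt1. The summed ependymal markers were at 55.5, 54.6 and 41.9 CPM in vehicle A, D and E. Vehicle B and C, at 23.0 and 26.8 CPM, were near the AM6545 samples, at 23.7 to 27.8 CPM. Of the choroid plexus markers 3 were at an unadjusted p under 0.05, Sostdc1 (-1.47), Prlr (-1.55) and Folr1 (-1.93). Over all genes tested, 4.18% were lower in AM6545 samples at that unadjusted p. Of 12 astrocyte markers 5 were higher and 7 lower (median -0.04), and of 12 neuron markers 9 were higher and 3 lower (median 0.12). Of 12 microglia markers 9 were higher and 3 lower (median 0.07), with Tmem119 at an unadjusted p under 0.05 (log2 fold change 0.33, SE 0.13). The ranges of Tmem119, 50.3 to 57.6 CPM in AM6545 samples and 28.5 to 49.2 CPM in vehicle samples, did not overlap. Tmem119 was the only 1 of the 12 without overlap, beside 1.45% of all genes tested. Perivascular macrophage markers were 4 higher and 4 lower (median 0.05). Of 12 oligodendrocyte markers 5 were higher and 7 lower (median -0.09), with Mal at an unadjusted p under 0.05 (-0.36, SE 0.16), and of 8 markers of their precursors 6 were higher and 2 lower (median 0.05).

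Levels of different members were ranked per length, as mean CPM per kilobase of the longest protein-coding transcript over the 9 samples. Dcn was highest at 94.3 ± 16.2 (SD, n = 9), then Vtn at 41.6 ± 19.2 and Itm2a at 28.6 ± 5.68. Slco1c1 at 18.2 ± 9.69 and Slc2a1 at 18.0 ± 2.91 overlapped in mean ± SD, and so did Vtn and Itm2a. Mfsd2a followed at 11.4 ± 1.54 and Ly6c1 at 8.98 ± 3.07. The receptors and the junction cadherin stood at the other end: Kdr at 0.571 ± 0.109, Flt1 at 0.289 ± 0.0526, Tek at 0.227 ± 0.108, Tie1 at 0.101 ± 0.0646 and Cdh5 at 0.0618 ± 0.0293. Within the collagens, Col1a2 was at 1.77 ± 0.866, above Col3a1 at 0.312 ± 0.178 and Col1a1 at 0.221 ± 0.135. The last pair also overlapped in mean ± SD. These SDs measure the spread between samples. Whether 1 gene lay above another within each sample was not tested.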

How the data were processed

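Low-input SMARTer libraries of 9 hippocampal synaptoneurosome samples were sequenced with a NovaSeq, per the protocols in the labels. The authors deposited estimated counts per gene, with no scaling between samples. The submitters' processing notes list Salmon 1.3, DESeq2 1.30 and the builds GRCm39 and mm10, without saying what each was used for. The strand setting and annotation release are not given in the sources used here. Gene symbols were found for 22155 of 22255 identifiers, by Ensembl ID without its version. Estimation shares reads between similar transcripts, so near-identical genes are uncertain. Over 36 pairs of samples, chi-square per degree of freedom was at least 10.3, so no pair agreed within sampling noise and none was merged.

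Counts were rounded, genes with low counts were dropped by filterByExpr (14512 kept), and TMM factors (0.964 to 1.04) were applied. AM6545 and vehicle, as named in the sample titles, were compared in edgeR 4.0.16 under R 4.3.3, using its quasi-likelihood test, Benjamini-Hochberg adjustment over all genes and an adjusted p threshold of 0.05. SEs were derived from the log2 fold change and the F statistic. Class levels are means of log2 CPM with a prior count of 2. The fit was tested on simulated data for the same comparison (14512 genes). It found 40.8% of 201 genes given a 1.5-fold change, 80.6% of 201 given 2-fold and 98.0% of 198 given 4-fold. Whether the members would be found at these rates was not tested. In the measured samples the choroid plexus markers Ttr and Folr1 had log2 fold changes of -2.04 (SE 0.99) and -1.93 (SE 0.89). Both had an adjusted p of 0.653 by edgeR's quasi-likelihood test. Transcript lengths and overlaps came from GENCODE M21, similar transcripts from blastn 2.17.0 and promoters from RefSeq. Alternatives were other size factors, other filters, DESeq2 1.42.0, a replicate block, each sample left out and, chosen after seeing the data, a choroid plexus covariate. The members and gene lists were chosen with earlier results of these data known. Values in all samples are given for the 3 tested members of each class with the highest mean CPM, those with the highest and the lowest log2 fold change in each class, and every member with an unadjusted p under 0.05 or with groups that do not overlap. In the other lists, genes with an unadjusted p under 0.05 are named, at most 5 a list. The result of a further marker list is not reported here.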

Additional observations from a re-analysis of the deposited data

Results flagged for a closer look

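For 29 genes and 3 class levels, the distance of the most extreme sample to its neighbour was divided by the range of the group, and 5 of 64 groups exceeded the 95% critical value of Dixon, where chance gives 3.2. In vehicle C the endothelial level was 1.62 mean log2 CPM while the rest of the group lay between 2.52 and 2.84 (ratio 0.740), and the mural level was 1.41 while the rest lay between 1.90 and 2.03 (ratio 0.787). Tek was at 0.559 CPM in vehicle C, and at 1.39 to 1.61 CPM in the rest of its group (ratio 0.787). Myh11 was at 0.847 CPM in AM6545 B, and at 0.386 to 0.413 CPM in the rest (ratio 0.941). Notch3 was at 1.02 CPM in vehicle E, and at 0.423 to 0.578 CPM in the rest (ratio 0.742). The Myh11 and Notch3 values rest on at most 23 and 26 counts.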

How the results depend on the processing

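The count of members past the adjusted threshold was 0 in every alternative run, and for all genes it was 0 except without AM6545 A (1 gene, Gm14308). Members at an unadjusted p under 0.05 numbered 2; the number was 1 with DESeq2, 1 with the choroid plexus level as a covariate and 0 with the replicate block, and ran from 0 to 3 with each sample left out. The count over all genes at an unadjusted p under 0.05 was 1047 and ran from 496 without vehicle A to 1848 without AM6545 E. Pairing by the replicate letter was not shown. Correlations ran from -0.02 to 0.34 for same-letter samples, highest for C, and from -0.28 to 0.35 for different letters. With the replicate block 759 genes had an unadjusted p under 0.05 and 0 passed the adjusted threshold. The log2 fold change was then -0.41 for Slco1a4 (unadjusted p = 0.198, edgeR), -0.25 for Slco1c1 and -0.85 for Tek. Letter D has no AM6545 sample, so vehicle D does not enter these blocked estimates. Leaving out vehicle D without a block gave -0.61 for Slco1a4 and -0.45 for Slco1c1. The log2 fold change of Slc2a1 was 0.0074 with RLE size factors, 0.0021 with no count filter, 0.0004 with at least 1 CPM in 4 samples, 0.0084 with DESeq2, 0.10 with the replicate block and 0.11 with the covariate, against a main estimate just under 0; it ran from -0.1082 to 0.0791 with each sample left out. Vtn ran from -0.27 to 0.35, Acta2 from -0.22 to 0.30 and Slc6a13 from -0.11 to 0.58 on the same scale. The class medians moved by less than the spread between samples. The cause of these shifts was not tested. Among the tested members, depth limits Tek, Tie1, Abcb1a, Myh11, Abcc9 and Notch3, which had fewer than 50 counts in every sample.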
